A study of Homo sapiens with 13 samples.

Results

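The Hedgehog pathway genes described here are *SHH*, *PTCH1*, *HHIP*, *SMO*, *SUFU*, *GLI1*, *GLI2* and *GLI3*. They were taken by gene symbol, and all 8 were found among the 56831 genes listed for each cell line. RNA was sequenced from H82 and H146, established human small cell lung cancer (SCLC) lines, kept untreated or exposed to 100 nM FHD-286 for 14 days. FHD-286 is a small molecule that inhibits the SMARCA4 and SMARCA2 ATPases of the SWI/SNF chromatin remodeling complexes. There were 3 untreated libraries of H82, 3 of H82 with FHD-286, 3 untreated libraries of H146 and 4 of H146 with FHD-286. The comparison asked which Hedgehog genes changed upon treatment in each line, and whether the change differed between the lines. The labels name no vehicle for the untreated cells and do not say that replicates were separate cultures, so p-values measure the spread between these libraries, which may be technical.

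Hedgehog ligands such as Sonic hedgehog (*SHH*) bind the receptor Patched (*PTCH1*), which in the absence of ligand holds the membrane protein Smoothened (*SMO*) inactive. Once released, Smoothened acts at the primary cilium to free the GLI transcription factors from SUFU, and GLI activity raises *GLI1*, *PTCH1* and *HHIP*, so that the last pair feed back on the signal. The pathway patterns the embryonic lung and neural tube, and it has been studied as a growth signal in SCLC.

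Values are TPM, the share of all transcripts in a library after correction for gene length, and a log2 fold change is the difference in mean log2(TPM + 1) between treated and untreated libraries, which understates the change of genes near or below 1 TPM. A gene was tested in a line if it reached 1 TPM in at least 3 of that line's libraries, and it was called at an adjusted p under 0.05 (limma, Benjamini-Hochberg over all genes tested). *PTCH1*, *HHIP*, *SMO*, *SUFU* and *GLI1* met this filter in both lines, and *SHH*, *GLI2* and *GLI3* met it in neither. *HHIP* met it in H146 through the untreated libraries alone, where it was high. In H82, 1 of the 5 tested Hedgehog genes was called higher (*SMO*) and 0 lower, where 58.6% of 19770 genes were called, 13.1% higher and 45.5% lower. In H146, 3 of the 5 were called higher (*PTCH1*, *SMO* and *SUFU*) and 1 lower (*HHIP*), where 47.9% of 19585 genes were called, 32.5% higher and 15.5% lower. *SMO* therefore rose in both lines, *PTCH1* and *SUFU* were called higher in H146, and *GLI1* was called in neither.

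**Figure D1:**
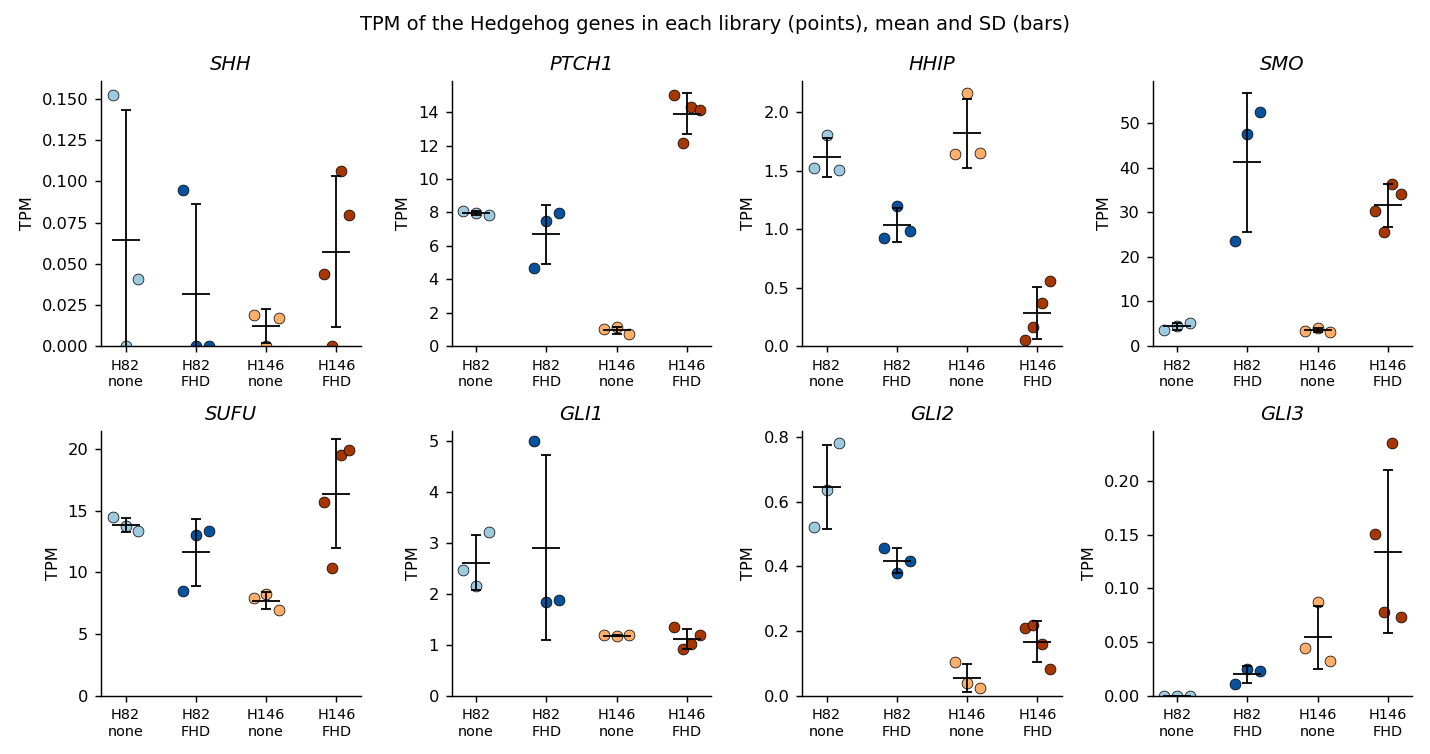
TPM (vertical axes, linear, a separate scale for each gene) of the 8 Hedgehog genes in each library (points), with the mean and SD of each group (bars), for H82 and H146 without treatment (none) and with FHD-286 (FHD). Treated *SMO* lies between 23.5 and 52.5 TPM, above every untreated library, while all 4 treated H146 libraries lie above the untreated range for *PTCH1* and the treated and untreated groups of *GLI1* overlap in both lines.

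A few properties of the libraries touch these values. The median log2 fold change of all genes tested was -0.56 in H82 and 0.25 in H146, and with median of ratios scaling between libraries it was -0.14 and -0.02, so that changes are also given relative to these medians. Genes at 1 TPM or more numbered 21225 to 21770 in untreated H82 and 15552 to 16631 in treated H82, against 17474 to 17963 and 18776 to 19307 in H146. Of 7 neuroendocrine markers, *SYP*, *CHGA*, *INSM1*, *NCAM1*, *UCHL1* and *DLL3* were above 12 TPM in all libraries, while *NEUROD1* was at 48.0 to 234 TPM in H82 and at most 0.521 TPM in H146. They did not move together in H82. *SYP* was there at 193 to 212 TPM untreated and 31.5 to 58.1 TPM treated. *CHGA* was at 114 to 159 and 14.3 to 62.5 TPM. *INSM1* was at 12.5 to 15.8 and 32.1 to 296 TPM, and *UCHL1* at 384 to 430 and 808 to 1054 TPM. In H146, *INSM1* was at 1140 to 1405 TPM untreated and 758 to 1018 TPM treated. *UCHL1* was at 1933 to 2105 and 1356 to 1536 TPM, and *DLL3* at 63.6 to 75.3 and 43.8 to 49.8 TPM. *SYP*, *CHGA* and *NCAM1* overlapped between the H146 groups. The part of these markers in the Hedgehog results was not tested. The blood markers *CD3E* and *CD68* were at most 0.201 TPM. *PTPRC* was at 3.29 to 6.75 TPM in H146 and at most 0.402 TPM in H82. The endothelial marker *PECAM1* was at most 0.525 TPM. *VWF* was at 1.60 to 2.25 TPM in untreated H146, 0.0307 to 0.137 TPM in treated H146 and at most 0.0935 TPM in H82. A set of 91 genes at 20 TPM or more in untreated H146 and under 0.05 TPM in untreated H82, chosen after the values were seen, summed to 47.1, 204 and 20.5 TPM in treated H82 replicates 1, 2 and 3, to at most 0.242 TPM in untreated H82 and to 7289 to 7833 TPM in untreated H146. Its part in the H82 results was not tested.

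*PTCH1* (ENSG00000185920) lies at chr9:95442980-95517057 on the minus strand of hg38, and *SMO* (ENSG00000128602) at chr7:129188633-129213545 on the plus strand. Because these genes carried the largest changes, the 250 bases before a transcription start are shown for each, 5′ to 3′ along the gene, from RefSeq on GRCh38.p14. The GLI consensus GACCACCCA was searched on both strands, and capitals mark an exact match. The *PTCH1* window is chr9:95509267-95509516. Of the 5 starts listed for the gene, it is before the 1 that had an exact match. The *SMO* window is chr7:129188383-129188632.
PTCH1: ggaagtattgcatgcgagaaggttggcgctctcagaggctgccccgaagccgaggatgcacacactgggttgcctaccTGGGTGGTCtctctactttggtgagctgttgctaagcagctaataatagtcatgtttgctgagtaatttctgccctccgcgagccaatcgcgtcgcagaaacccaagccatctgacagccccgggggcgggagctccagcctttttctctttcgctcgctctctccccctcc
SMO: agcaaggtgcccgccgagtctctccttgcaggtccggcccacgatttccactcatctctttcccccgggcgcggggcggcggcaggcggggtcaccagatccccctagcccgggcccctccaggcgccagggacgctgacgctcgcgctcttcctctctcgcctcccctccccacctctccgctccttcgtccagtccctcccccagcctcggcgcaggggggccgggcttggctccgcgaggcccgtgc

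In *PTCH1* the match is TGGGTGGTC, the reverse complement of the consensus, and begins 172 bases before that start. Of all 35116 RefSeq windows of this kind, each running from 250 bases before to 50 bases after a start, 83 (0.24%) held an exact match on either strand. Counted by gene, 81 of 27305 genes with a window (0.3%) held a match in at least 1. Among the 6 Hedgehog genes with a window (*SHH*, *PTCH1*, *HHIP*, *SMO*, *SUFU* and *GLI2*), *PTCH1* was the 1 gene with a match. It had 5 windows, whereas *SMO* had 1. *SMO* held none, nor did any of the 39 genes with a window in the wider pathway list described further on. A match to these letters is a description of the window, and binding was not measured in these data.

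*SMO*, the signal transducer, was low in untreated cells of both lines and high in treated cells of both. In H82 it stood at 3.51, 4.57 and 5.18 TPM without treatment, and at 23.5, 47.6 and 52.5 TPM with FHD-286. The groups did not overlap, and treated replicate 1 was the lowest of its group. The mean went from 4.42 ± 0.841 TPM (SD, n = 3) to 41.2 ± 15.5 TPM (SD, n = 3), a ratio of 9.32. The log2 fold change was 2.89 (SE 0.32, 95% interval 2.14 to 3.65, adjusted p = 4.55e-04 in limma), 3.45 above the median of all genes, and *SMO* ranked 89 of 19770 genes by size of rise.

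In H146, *SMO* stood at 3.34, 4.03 and 3.18 TPM without treatment, and at 30.3, 25.5, 36.4 and 34.2 TPM with FHD-286. Again no treated library came near the untreated range. The mean went from 3.51 ± 0.452 TPM (SD, n = 3) to 31.6 ± 4.81 TPM (SD, n = 4), a ratio of 8.99. The log2 fold change was 2.84 (SE 0.16, 95% interval 2.47 to 3.22, adjusted p = 1.08e-05 in limma), with rank 63 of 19585. The H82 change exceeded the H146 change by 0.05 on the log2 scale (95% interval -0.73 to 0.82, adjusted p = 0.915 in limma, interaction of line and treatment over 13 libraries). That interval leaves room for a sizeable difference, and the call depended on scaling, with a difference of 0.80 (adjusted p = 0.0499) after median of ratios and 0.98 (adjusted p = 0.013) after quantile normalization. The summed TPM of the fibroblast markers *COL1A1*, *COL1A2* and *DCN* moved with *SMO*, from 0.466 to 0.753 in untreated H82 to 3.85 to 27.6 in treated H82, and from 6.43 to 8.42 to 11.9 to 17.8 in H146, with *COL1A2* and *DCN* but not *COL1A1* free of overlap in each line, and its part in the *SMO* result was not tested. In bulk RNA, a change in the share of cells of one kind and a change in RNA per cell cannot be told apart.

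The coding genes next to *SMO* did not share its ratio in both lines. *AHCYL2*, 11485 bases away on the same strand, had mean levels of 11.9 and 15.3 TPM in untreated and treated H82, and 8.30 and 13.03 TPM in H146. *TSPAN33*, 18934 bases away on the same strand, had 66.6 and 120 TPM in H82 and 47.9 and 31.1 TPM in H146.

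*PTCH1*, the receptor and a GLI target, separated the lines. In H146 it stood at 1.01, 1.11 and 0.700 TPM without treatment, and at 15.0, 12.2, 14.3 and 14.2 TPM with FHD-286. All 4 treated libraries lay far above the untreated ones, and the mean went from 0.941 ± 0.214 TPM (SD, n = 3) to 13.9 ± 1.23 TPM (SD, n = 4), a ratio of 14.8. The log2 fold change was 2.94 (SE 0.16, adjusted p = 8.33e-06 in limma), and *PTCH1* ranked 52 of 19585 genes by size of rise, just ahead of *SMO*.

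In H82, *PTCH1* was already at 8.06, 7.97 and 7.82 TPM in untreated cells, and stood at 4.68, 7.48 and 7.95 TPM with FHD-286. The groups overlapped, with treated replicate 1 the lowest. The log2 fold change was -0.24 (SE 0.22, 95% interval -0.77 to 0.28, adjusted p = 0.374 in limma), 0.31 above the median of all genes, and it was 0.19 (adjusted p = 0.468) after median of ratios scaling. Without treated replicate 1 it was -0.04. The change in H82 was smaller than that in H146 by 3.19 on the log2 scale (H82 minus H146, -3.19, adjusted p = 1.61e-06 in limma), and this difference was past the threshold in 20 of 20 alternatives, between -4.05 and -2.04. Across the 4 groups the order of *PTCH1* was treated H146, untreated H82, treated H82 and untreated H146, and only the 2 H82 groups overlapped as neighbours in that order.

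*HHIP*, a membrane protein that binds and sequesters Hedgehog ligands, moved the other way from *PTCH1* in H146. It stood at 1.65, 2.16 and 1.65 TPM without treatment, and at 0.0546, 0.159, 0.364 and 0.555 TPM with FHD-286. The groups did not overlap, and the mean went from 1.82 ± 0.297 TPM (SD, n = 3) to 0.283 ± 0.222 TPM (SD, n = 4), lower by a ratio of 6.42. The log2 fold change was -1.15 (SE 0.20, adjusted p = 0.0023 in limma), and without the added 1 TPM the log2 ratio of means was -2.68. With no filter on low genes *HHIP* was still called in H146 (adjusted p = 0.0053 in limma). *PTCH1* and *HHIP*, both GLI targets, thus changed in opposite directions in the same 7 libraries.

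In H82, *HHIP* stood at 1.52, 1.80 and 1.51 TPM without treatment, and at 0.920, 1.20 and 0.982 TPM with FHD-286. The groups did not overlap, but the log2 fold change of -0.36 did not pass the test (SE 0.18, adjusted p = 0.124 in limma), lay 0.20 above the median of all genes, and turned to 0.61 (adjusted p = 0.0406) under quantile normalization. Its difference between the lines, 0.78 (H82 minus H146, adjusted p = 0.0131 in limma), was past the threshold in 20 of 20 alternatives. Of the 5 tested Hedgehog genes, 2 in H82 (*SMO* and *HHIP*) and 4 in H146 (*PTCH1*, *HHIP*, *SMO* and *SUFU*) had groups that did not overlap, where 67.8% and 52.9% of all genes tested did so.

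*SUFU*, the cytoplasmic inhibitor that binds GLI proteins, lies at chr10:102503972-102633535 on the plus strand. In H146 it stood at 7.96, 8.26 and 6.92 TPM without treatment, and at 15.7, 10.4, 19.5 and 19.9 TPM with FHD-286. The groups did not overlap, although treated replicate 2 lay close to the untreated range. The mean went from 7.71 ± 0.703 TPM (SD, n = 3) to 16.4 ± 4.42 TPM (SD, n = 4), a ratio of 2.12, with a log2 fold change of 0.96 (SE 0.22, adjusted p = 0.00853 in limma), 0.71 above the median of all genes.

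In H82, *SUFU* stood at 14.5, 13.8 and 13.3 TPM without treatment and at 8.48, 13.1 and 13.3 TPM with FHD-286, with overlapping groups. Its log2 fold change of -0.26 did not pass the test (SE 0.21, adjusted p = 0.313 in limma), and it was 0.20 (adjusted p = 0.39) after median of ratios scaling. Treated replicate 1 was the lowest for *SUFU* as for *PTCH1*, and without it the value was -0.06. The difference between the lines was -1.22 (H82 minus H146, adjusted p = 0.00534 in limma), and this call was lost with median of ratios scaling (-0.46, adjusted p = 0.156) and quantile normalization (-0.41, adjusted p = 0.218). In all, 3 of the 5 tested Hedgehog genes differed between the lines (*PTCH1*, *HHIP* and *SUFU*), where 59.3% of 24374 genes did.

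**Figure D2:**
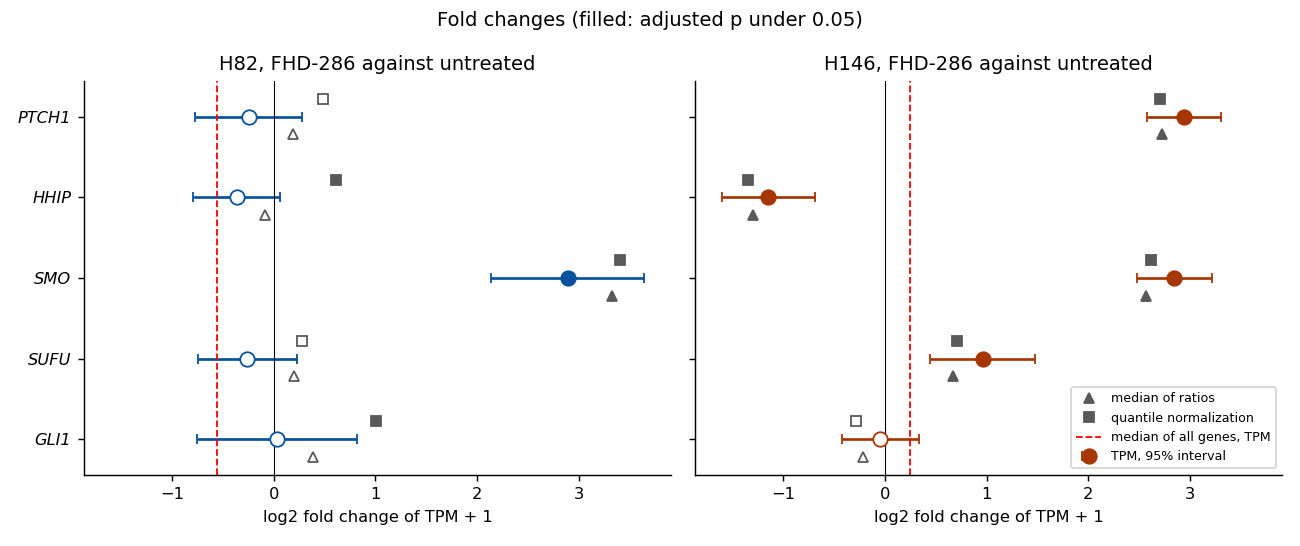
Log2 fold changes of TPM + 1 (horizontal axis), FHD-286 against untreated, for the 5 tested Hedgehog genes in H82 (left) and H146 (right), as circles with 95% intervals, with median of ratios (triangles) and quantile normalization (squares) beside them; filled symbols have an adjusted p under 0.05, and the dashed line is the median of all genes. *SMO* is filled under each scaling in both lines, whereas *PTCH1* is filled only in H146, at 2.94.

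*GLI1*, the GLI factor whose own transcription rises with GLI activity, stayed low. In H146 it stood at 1.19, 1.16 and 1.18 TPM without treatment and at 1.36, 0.912, 1.02 and 1.19 TPM with FHD-286, so that the groups overlapped around a nearly constant level. Its log2 fold change was -0.04 (SE 0.17, 95% interval -0.42 to 0.33, adjusted p = 0.838 in limma), in the same libraries in which *PTCH1* and *SMO* rose. In H82 it stood at 2.46, 2.16 and 3.21 TPM without treatment and at 5.00, 1.85 and 1.88 TPM with FHD-286. Treated replicate 1 was above every untreated library and the other two were below them, which gave a log2 fold change of 0.03 (adjusted p = 0.943 in limma). Without treated replicate 1 it was -0.32 (adjusted p = 0.221), and with quantile normalization of all libraries it was 1.01 (adjusted p = 0.0227). The difference between the lines was 0.08 (adjusted p = 0.863 in limma).

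*GLI1* sits at chr12:57459785-57472268 on the plus strand, overlaps *ARHGAP9* on the other strand, and begins 505 bases past the end of *INHBE* on its own strand. Mean *INHBE* was 63.1 and 9.44 TPM in untreated and treated H82, and 215 and 4.19 TPM in H146. *ARHGAP9* was at 2.83 and 0.889 TPM in H82 and at 2.79 and 2.33 TPM in H146. Whether the reads were counted by strand is not given in the sources used here, and the part of these neighbours in the *GLI1* values was not tested.

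*GLI2*, the main activator of the pathway, and *GLI3*, which acts mostly as a repressor, were below 1 TPM in all 13 libraries. In H82, *GLI2* was at 0.522, 0.636 and 0.781 TPM without treatment and at 0.456, 0.378 and 0.417 TPM with FHD-286, with no overlap and a two-sided exact permutation p of 0.1, the smallest that 3 against 3 libraries allow. In H146 it was at 0.105, 0.0392 and 0.0238 TPM and at 0.210, 0.218, 0.161 and 0.0818 TPM, with overlap (exact permutation p = 0.0857, where 0.0286 is the smallest possible). *GLI3* was listed at 0 in the 3 untreated H82 libraries and at 0.0109 to 0.0253 TPM in the treated ones (exact permutation p = 0.1). In H146 it was at 0.0319 to 0.0876 TPM without treatment and at 0.0731 to 0.235 TPM with FHD-286 (exact permutation p = 0.171).

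*SHH*, the ligand, was nearly undetected throughout. Its highest value in any library was 0.152 TPM, and it was listed at 0 in 5 of 13 libraries. In H82 it was at 0.152, 0 and 0.0406 TPM without treatment and at 0.0949, 0 and 0 TPM with FHD-286 (exact permutation p = 0.7). H146 libraries held 0.0192, 0 and 0.0173 TPM before and 0.0436, 0, 0.106 and 0.0795 TPM after treatment (exact permutation p = 0.2). TPM keeps no read depth, so no detection limit can be set for these genes. In the fits with no filter on low genes none of *SHH*, *GLI2* and *GLI3* was called within a line, and the change of *GLI2* differed between the lines (H82 minus H146, -0.36, adjusted p = 0.0385 in limma).

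**Figure D3:**
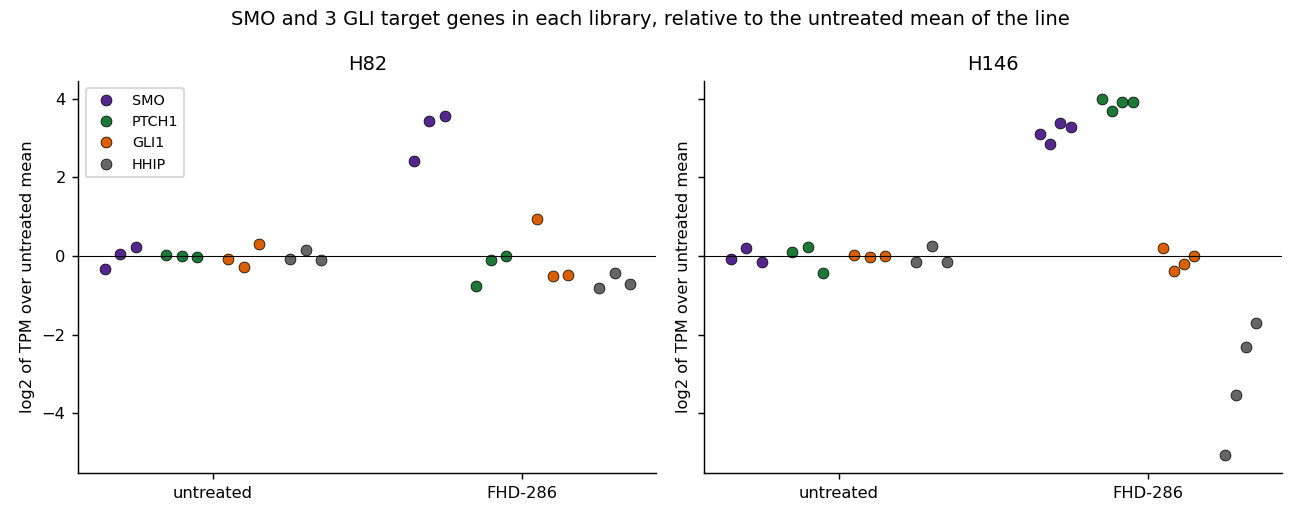
Log2 of TPM over the mean TPM of the untreated libraries of the same line (vertical axis) for *SMO* and the GLI target genes *PTCH1*, *GLI1* and *HHIP* in each library (points), for H82 (left) and H146 (right), with untreated and FHD-286 libraries apart. In treated H146 *PTCH1* lies with *SMO* above 0, *GLI1* around 0 and *HHIP* below 0, while in treated H82 *SMO* alone lies apart upward in all 3 libraries.

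The tested Hedgehog genes did not all vary together over the 13 libraries. As a description, Pearson's r of log2(TPM + 1) was 0.87 for *PTCH1* and *SUFU*, 0.67 for *PTCH1* and *SMO* and 0.52 for *SMO* and *SUFU*. It was 0.05 for *PTCH1* and *GLI1*, -0.06 for *SMO* and *GLI1*, -0.72 for *PTCH1* and *HHIP* and -0.74 for *SMO* and *HHIP*. These points share 4 groups, so r mostly reflects the group means. Among 15679 genes tested in both lines, the gene most like *SMO* was *PNMA1* (r = 0.98), followed by *GJA1*, the gap junction protein connexin 43 (r = 0.98), and *ACTR3B* (r = 0.98). *GJA1* went from a mean of 4.32 to 111 TPM in H82 and from 2.56 to 46.0 TPM in H146.

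The genes most like *PTCH1* were *TLE4*, a transcriptional corepressor (r = 0.98), *ATP2B1*, a plasma membrane calcium pump (r = 0.98), and *MEGF9* (r = 0.97). *TLE4* had mean levels of 11.5 and 10.6 TPM in untreated and treated H82, and 1.03 and 40.1 TPM in H146. Those most like *HHIP* were *SLC13A3* (r = 0.95), *TMEM242* (r = 0.95) and *HTRA1* (r = 0.94). For *SUFU* they were *TMEM127*, *ZC3H4* and *WIPF2* (each r = 0.98), and for *GLI1*, *AC090421.1* (r = 0.96), *FAM175A* (r = 0.95) and *TOMM20* (r = 0.94).

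A wider list of 54 other Hedgehog pathway genes, drawn from general knowledge of the pathway, was read from the same fits. In H82, 40 were tested, with 2 called higher and 14 lower, beside 13.1% and 45.5% of all genes, and a median log2 fold change of -0.35, where the median of all genes was -0.56. In H146, 42 were tested, with 21 called higher and 5 lower, beside 32.5% and 15.5% of all genes, and a median of 0.48, where that of all genes was 0.25. These splits followed the scaling, since with median of ratios the counts were 8 higher and 5 lower in H82 and 12 higher and 9 lower in H146. Under that scaling, 4793 of all 19770 genes were higher and 6499 lower in H82. In H146, 4165 of all 19585 genes were higher and 4917 lower. The median of ratios counts by role given below are to be read beside these.

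The other ligands were low. *IHH* and *DHH* were below the filter in both lines; in H82 *IHH* was at 0.284, 0.641 and 0.506 TPM and *DHH* at 0.594, 0.402 and 0.846 TPM without treatment, and both were listed at 0 in the 3 treated libraries. With no filter on low genes both were called lower in H82 (adjusted p = 0.0152 and 0.0109).

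The coreceptors, which help present ligand to Patched, were not called at the filter used. The log2 fold change of *CDON* was -0.16 (H82, adjusted p = 0.428) and -0.47 (H146, adjusted p = 0.0954), and in H146 it was called lower with median of ratios (-0.74, adjusted p = 0.0191) and quantile normalization (-0.73, adjusted p = 0.0171). *BOC* was below the filter in H82, at 0.427, 0.276 and 0.297 TPM without treatment and at 0.763, 4.12 and 5.31 TPM with FHD-286, and in H146 its log2 fold change was 0.66 (adjusted p = 0.102). *GAS1* stayed below 1 TPM in every library, at 0 to 0.0724 TPM in untreated and 0.127 to 0.406 TPM in treated H82, and at 0.0679 to 0.137 TPM in untreated and 0.452 to 0.835 TPM in treated H146, and with no filter it was called higher in H146 (log2 fold change 0.52, adjusted p = 0.0139) and not in H82 (0.33, adjusted p = 0.0666). Neither *BOC* in H82 nor *GAS1* in either line overlapped between treated and untreated libraries. Of all genes tested, 67.8% in H82 and 52.9% in H146 did not overlap either.

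Regulators of Smoothened and of the GLI proteins made up most of the H146 rises. Of 9 tested genes acting on Smoothened, 6 were called higher in H146 and 0 lower, beside 32.5% and 15.5% of all genes, and with median of ratios 4 were higher and 1 lower. *ARRB1*, a beta-arrestin, went from 2.07, 3.09 and 1.93 TPM to 11.4, 4.88, 17.8 and 19.0 TPM, with a log2 fold change of 1.95 (SE 0.40, adjusted p = 0.00504). *GPR161*, a ciliary receptor that restrains the pathway through protein kinase A, went from 7.64, 8.63 and 6.17 TPM to 26.3, 19.7, 21.5 and 22.3 TPM, with a log2 fold change of 1.47 (SE 0.16, adjusted p = 2.42e-04). In H82, 8 of these genes were tested, with 0 called higher and 3 lower, beside 13.1% and 45.5% of all genes, and 1 higher and 0 lower with median of ratios. Of 10 genes for GLI processing and turnover, 7 were called higher and 0 lower in H146, beside 32.5% and 15.5% of all genes. In H82, 0 were called higher and 2 lower, beside 13.1% and 45.5% of all genes. With median of ratios the counts were 3 higher and 1 lower in H146, and 2 higher and 2 lower in H82.

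Of 10 primary cilium genes, 5 were called higher and 0 lower in H146, beside 32.5% and 15.5% of all genes. In H82, 0 were called higher and 5 lower, beside 13.1% and 45.5% of all genes. With median of ratios 3 were higher and 1 lower in H146, and 2 higher and 2 lower in H82. *IFT172*, an intraflagellar transport protein, went in opposite directions in the lines. It fell from 41.5, 41.7 and 44.2 TPM to 13.1, 12.7 and 14.6 TPM in H82 (log2 fold change -1.59, SE 0.13, adjusted p = 2.06e-04), and rose from 6.34, 6.31 and 5.32 TPM to 15.0, 14.9, 21.8 and 19.2 TPM in H146 (log2 fold change 1.40, SE 0.17, adjusted p = 4.57e-04). *INPP5E*, a ciliary phosphoinositide phosphatase, fell in H82 (-1.28, SE 0.16, adjusted p = 8.04e-04), from 26.0 to 31.9 TPM in untreated libraries to 10.7 to 13.4 TPM in treated ones.

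Of 14 genes described as GLI targets in other settings, 8 were tested in H82, with 2 called higher and 2 lower, beside 13.1% and 45.5% of all genes. In H146, 9 were tested, with 1 called higher and 5 lower, beside 32.5% and 15.5% of all genes. Their median log2 fold change in H146 was -0.64, where that of all genes was 0.25. With median of ratios it was -0.96, again with 5 lower, where that of all genes was -0.02. The low median depended on the filter. With no filter all 14 entered the H146 fit, and their median was 0.03, where that of all genes was 0.08. Of these, 1 was called higher and 4 lower, beside 5803 and 3042 of all 40184 genes. At the filter used, the H82 median of the targets was -0.34 and that of all genes -0.56. *CCND1*, cyclin D1, went from 0.238, 0.376 and 0.381 TPM to 4.45, 14.3 and 17.8 TPM in H82, with a log2 fold change of 3.13 (SE 0.45, adjusted p = 0.00128). It was also the 1 called higher in H146, with a log2 fold change of 0.80 (SE 0.18, adjusted p = 0.00737). The size of the H82 change of *FOXA2* (2.70, SE 0.97, adjusted p = 0.0476) rested on treated replicate 2, which held 35.7 TPM, while treated replicates 1 and 3 held 2.62 and 1.08 TPM and the untreated libraries were listed at 0. Without that library it was 1.45 and still called (adjusted p = 0.0092), and with no filter on low genes it was not called (adjusted p = 0.0946). Both *CCND1* and *FOXA2* met the filter in H82 through the treated libraries alone, where they were high. In H146 *CCND1* also met it through the treated libraries, at 1.92 to 2.51 TPM. Its untreated H146 libraries were at 0.699, 1.11 and 0.578 TPM.

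In H146 the largest falls among the targets were in *NKX2-2*, a neural tube transcription factor, from 6.18, 7.57 and 5.30 TPM to 0.735, 0.458, 0.974 and 0.909 TPM (log2 fold change -2.05, SE 0.19, adjusted p = 1.22e-04), and in *JAG2*, a Notch ligand, from 91.8, 94.9 and 101 TPM to 30.6, 33.4, 25.4 and 21.0 TPM (-1.78, SE 0.16, adjusted p = 1.15e-04). *NKX2-2* met the filter in H146 through the untreated libraries alone, where it was high. *MYCN* fell in H146 from 3.45, 4.83 and 3.09 TPM to 1.27, 0.819, 1.11 and 0.808 TPM (-1.25, SE 0.19, adjusted p = 0.00135). In H82, treated replicate 2 held 61.8 TPM of *MYCN*, whereas treated replicates 1 and 3 held 1.97 and 1.27 TPM and untreated libraries 2.95 to 3.59 TPM, and it was also the library with 204 TPM of the 91 genes above. The *MYCN* fold change in H82 was 0.83 (adjusted p = 0.568) with it and -0.70 (adjusted p = 0.0504) without it. For *SMO* in H82, leaving out any 1 library gave values between 2.68 and 3.25, with the call kept each time.

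**Figure D4:**
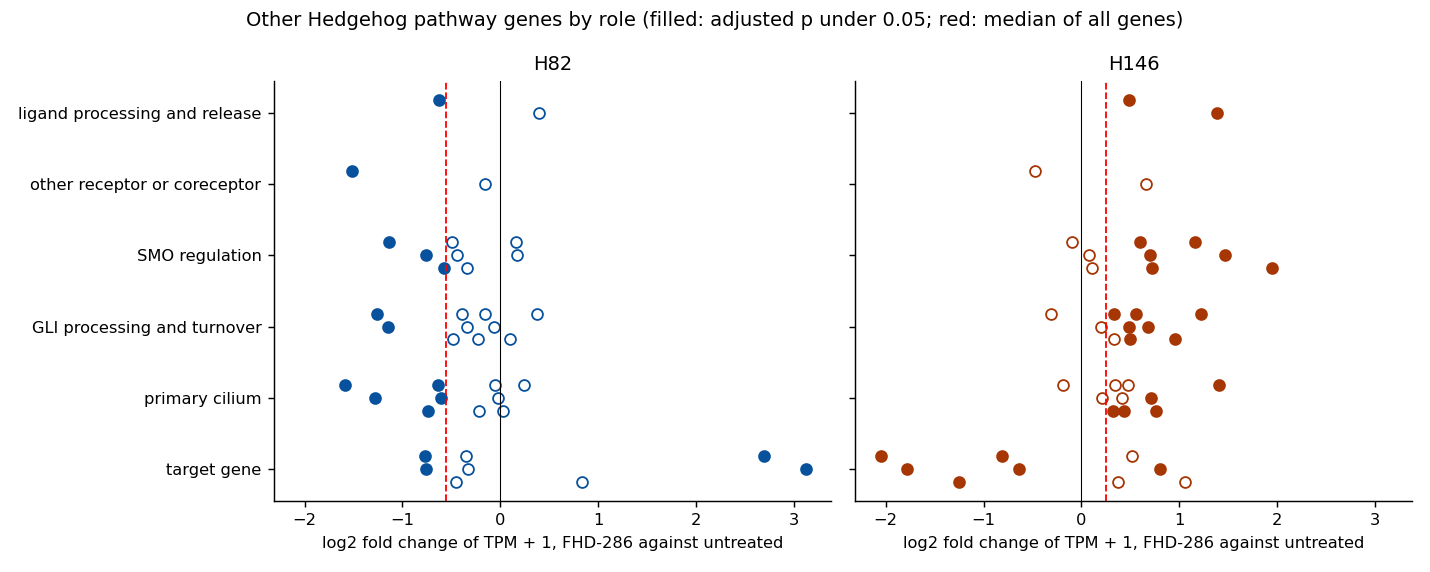
Log2 fold changes of TPM + 1 (horizontal axis), FHD-286 against untreated, of the tested genes in the wider pathway list by role (rows) in H82 (left) and H146 (right); each point is 1 gene, filled with an adjusted p under 0.05, and the dashed red line is the median of all genes. Filled points for Smoothened regulation, GLI processing and the cilium lie right of 0 in H146 and left of 0 in H82 on the TPM scale, a split that median of ratios scaling did not keep, with *CCND1* at 3.13 the rightmost point in H82.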

How the data were processed

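The deposited values are TPM made by the authors, in 1 table per line. The authors trimmed the reads with Trim Galore 0.4.4, mapped them to hg38, used STAR with a GENCODE annotation for read counts of each gene, and compared groups with DESeq2. How gene length entered TPM and whether counting used strand are not given in the sources used here. TPM has the same sum in each of the 13 columns, so read depth is unknown. Groups came from the treatment labels. No scaling beyond TPM was applied except where median of ratios or quantile normalization is named.

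Each line was fitted in R 4.3.3 with limma 3.58.1 (lmFit, eBayes with trend) on log2(TPM + 1), two-sided, for genes reaching 1 TPM in 3 or more libraries of the line. Calls used Benjamini-Hochberg adjusted p under 0.05, adjusted over every gene in the fit. Lines were compared by the interaction of line and treatment over 13 libraries. The Hedgehog genes below the filter (*SHH*, *GLI2* and *GLI3*) were compared with a two-sided exact permutation test. Calls of *IHH*, *DHH* and *GAS1*, also below it, came from the limma fits with no filter. The fits were tested on simulated data. Alternatives were a pseudocount of 0.1, no filter, median of ratios, quantile normalization, no trend, library weights, the replicate number as a block and leaving out each library. The log2 ratio of mean TPM was added after the data were seen.

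The members and lists were chosen with earlier results of these data known. Named genes were the 8 Hedgehog genes, the same-role genes of the wider list (other ligands and coreceptors), its 3 largest rises and 3 largest falls among called genes in each line, and for each tested Hedgehog gene the 3 genes of highest Pearson correlation over the 13 libraries. *CCND1* in H146, *MYCN* in H82 and the neighboring genes were named after their values were seen. One named gene is not reported here. In the wider list *SCUBE3* had no row and *GRK2* was listed as *ADRBK1*. Coordinates are from GENCODE on hg38.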

Additional observations from a re-analysis of the deposited data

Results flagged for a closer look

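The response of 3 Hedgehog genes to FHD-286 differed between the lines by the interaction test in limma, each given as the H82 log2 fold change minus that of H146. For *PTCH1* the difference was -3.19 (adjusted p = 1.61e-06), with 4 of 4 treated H146 libraries above every untreated one and 0 of 3 in H82. For *HHIP* it was 0.78 (adjusted p = 0.0131), with every treated library below every untreated one in both lines. For *SUFU* it was -1.22 (adjusted p = 0.00534), with 4 of 4 treated H146 libraries above every untreated one and 2 of 3 treated H82 libraries below every untreated one. None of the 8 Hedgehog genes had a library far enough from the others of treated H146, the 1 group large enough for that check, to be singled out.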

How the results depend on the processing

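The calls of *SMO* in both lines and of *PTCH1*, *HHIP* and *SUFU* in H146 were kept in each alternative that gave a test, with log2 fold changes of 2.68 to 3.41 and 2.57 to 3.13 for *SMO*, 2.70 to 3.77 for *PTCH1*, -2.52 to -1.03 for *HHIP* and 0.67 to 1.17 for *SUFU*. The values that moved were mainly those near 0 and those tied to scaling.

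With median of ratios, the H82 value of *PTCH1* was 0.19 and that of *SUFU* 0.20; all genes called higher in H82 were 4793, those in H146 4165 higher and 4917 lower, and 6216 had the larger change in H82. The Hedgehog genes with the larger change in H82 were then 2 and in H146 1, and the wider list had 8 higher and 5 lower in H82 and 12 higher and 9 lower in H146. With quantile normalization, 3 Hedgehog genes were called higher in H82 (*SMO*, *HHIP* and *GLI1*), and *PTCH1* was 0.48, *HHIP* 0.61 and *SUFU* 0.28. All genes in H82 were then 5070 higher and 5551 lower, 6142 had the larger change in H82 and 6261 in H146, and the Hedgehog genes 3 and 1, with *GLI1* differing by 1.39 (adjusted p = 0.00334). With library weights, *GLI1* was -0.34 in H82 and differed between the lines by -0.24, with 3975 genes higher in H82 and 4806 lower in H146. With a pseudocount of 0.1 the *SMO* difference between the lines was -0.0014.

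Leaving out 1 library kept the count of Hedgehog genes called in each comparison. *GLI1* then ranged between -0.32 and 0.21 (H82) and between -0.10 and 0.0035 (H146), with a difference of -0.28 to 0.26, and the *SMO* difference from -0.16 to 0.40. The direction of *GLI1* turned without H82 untreated replicate 2 (-0.06, difference -0.01), treated replicate 1 (-0.32, difference -0.28) or H146 treated replicate 2 (0.0035), and that of the *SMO* difference without H146 untreated replicate 2 (-0.03), H146 treated replicate 2 (-0.05), H82 untreated replicate 1 (-0.08) or H82 treated replicates 2 (-0.09) or 3 (-0.16). The cause of the moves under other settings was not tested.

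Same-numbered libraries did not deviate together (r of -0.09 to 0.02, against -0.04 to 0.09 for other pairs). These deviations are from means of 3 or 4 libraries, so the check cannot exclude a pairing. With the replicate block, 2333 genes were higher and 8625 lower in H82, 4749 and 2377 in H146, and no Hedgehog call changed.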
